A study of Mus musculus with 18 samples.

Results

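The secreted signals that tune the Wnt pathway were followed in mouse embryonic fibroblasts (MEFs), cultured mesenchymal cells of embryonic origin, across 3 doses of uracil. The set holds 10 genes of the 55487 gene identifiers in the count table: the R-spondins Rspo1, Rspo2 and Rspo3, the ligands Wnt5a and Wnt5b, the secreted inhibitors Dkk2, Dkk3, Sfrp1 and Sfrp2, and the feedback target Axin2. All 10 were found by their Ensembl identifiers. They were chosen by measured values, with their differences among the replicate numbers already known, so their levels across the numbers are a description with no test.

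MEFs were cultured for 24 h in full growth medium with no added uracil (control, 0 µM), with 10 µM uracil or with 30 µM uracil, the nucleobase of RNA, and total RNA was sequenced after depletion of ribosomal RNA. Each dose had 6 libraries, numbered n1 to n6 in the labels, which makes 18 in all. The labels do not give the strain, the genotype, the age of the embryos or what the numbers stand for, and the study calls the samples of a dose biological replicates. The comparison asks whether exogenous uracil changes the transcripts of fibroblasts, cells that lay down extracellular matrix.

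Wnt proteins are secreted glycoproteins that bind Frizzled receptors on the cell surface. With the co-receptors Lrp5 or Lrp6 they spare β-catenin from destruction, and β-catenin then acts with TCF/LEF factors on target genes such as Axin2, whose product feeds back on the pathway. Wnt5a and Wnt5b mostly signal without β-catenin, through receptors such as Ror2. R-spondins bind Lgr4, Lgr5 or Lgr6 and keep the ubiquitin ligases Rnf43 and Znrf3 from removing Frizzled receptors, which raises the sensitivity of a cell to Wnt. Sfrp proteins bind Wnt in the extracellular space, and Dkk2 blocks the Lrp co-receptors, whereas Dkk3 is a divergent family member whose part in Wnt signalling is less clear. Embryonic mesenchyme is a known source of several of these proteins.

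Control n1, 10 µM n6 and 30 µM n6 stood apart from the other libraries of their dose. Unaligned read pairs made up 54.2% of all pairs in control n1 (Wilson 95% interval 54.19% to 54.24%), 37.9% in 30 µM n6 (37.84% to 37.88%) and 5.24% in 10 µM n6 (5.235% to 5.252%), against 1.72% to 3.59% in the other 15. Read pairs assigned to genes came to 3963932 in control n1 and 7392564 in 30 µM n6, and to between 11600038 and 20775298 in the other libraries. The intervals cover counting error only. Results are given with all 18 libraries and beside them with numbers 2 to 5 alone, 12 libraries in which every dose holds the same numbers. Leaving out only the 3 libraries removes n1 from the controls and n6 from both uracil doses, so the doses then hold different numbers.

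RefSeq promoter windows (mouse build GRCm38.p6, 250 bases before to 50 after a transcript start) were at hand for 5 of the 10 genes, namely Rspo1, Wnt5b, Dkk2, Sfrp2 and Axin2, as 7 windows. The stretches of 3 windows that hold no annotated exon are shown, for Dkk2 as the inhibitor whose level followed Dkk3 and Rspo2 most closely, for Sfrp2 as the gene with the highest level, and for Axin2 as the transcriptional target of β-catenin. Capitals mark the letters TATAAA, and the sequences read 5′ to 3′ on the strand of the gene, which is the plus strand for all 3.
Dkk2, chr3:132085064-132085281: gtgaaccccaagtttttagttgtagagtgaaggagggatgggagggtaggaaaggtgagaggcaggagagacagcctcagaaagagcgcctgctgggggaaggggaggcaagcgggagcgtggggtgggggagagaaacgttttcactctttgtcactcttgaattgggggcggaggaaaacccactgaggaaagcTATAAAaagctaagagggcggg
Sfrp2, chr3:83766071-83766173: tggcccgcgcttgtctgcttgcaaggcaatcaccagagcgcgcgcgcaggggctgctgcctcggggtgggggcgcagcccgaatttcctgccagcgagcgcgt
Axin2, chr11:108920099-108920342: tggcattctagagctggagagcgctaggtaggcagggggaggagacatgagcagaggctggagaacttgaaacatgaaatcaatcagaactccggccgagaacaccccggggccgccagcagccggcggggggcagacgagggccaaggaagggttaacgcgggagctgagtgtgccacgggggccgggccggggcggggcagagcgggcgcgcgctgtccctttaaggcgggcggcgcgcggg
The Dkk2 stretch held 1 TATAAA, starting 32 bases before the transcript start, and TATAAA was present on either strand in 12.4% of all 32851 windows over the 250 upstream bases. GC content was 55.1% in the Dkk2 stretch, 70.9% in the Sfrp2 stretch and 68.4% in the Axin2 stretch, with 6, 12 and 23 CpG dinucleotides. The TCF/LEF core was searched on both strands as CTTTGNN with the last letters each A or T, which shares no letters with TATAAA in these stretches. It was absent from the 3 stretches shown, 1 of the 7 windows of these genes held one (a Wnt5b window), and 14.8% of all windows did. Such a match or its lack describes the letters of these windows only.

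Per kilobase of exon, Sfrp2 was the most abundant of the 10 transcripts and Rspo1 and Wnt5b were the least. RPKM here is CPM, the count of a gene scaled to library size, divided by the summed exon length in kilobases, and it was averaged over the 15 libraries with few unaligned pairs. Sfrp2 (chr3:83673481-83681623, GRCm39) was at 59.6 ± 13.4 RPKM (SD, n = 15) and exceeded the next gene in 15 of 15 libraries. Rspo3 (chr10:29327285-29411876), Dkk3 (chr7:111712904-111758760) and Rspo2 (chr15:42877439-43034706) followed at 13.6 ± 2.89, 12.7 ± 5.44 and 12.6 ± 4.84 RPKM. These 3 neighbours were not separated, since Rspo3 was above Dkk3 in 8 of 15 libraries and Dkk3 above Rspo2 in 9. Rspo2 was above the next gene in 15 of 15.

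**Figure D1:**
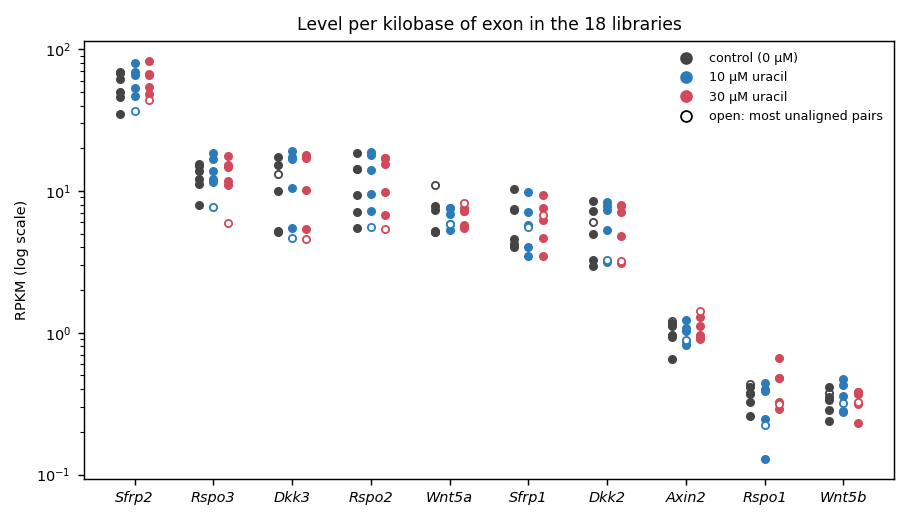
RPKM on a log axis for the 10 genes, ordered by their mean level, with 1 point per library coloured by dose and open points for the 3 libraries with the most unaligned pairs. Sfrp2 lies above every other gene, and Rspo1 and Wnt5b lie below 1 RPKM in every library.

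The next group in level held Wnt5a (chr14:28226495-28249405) at 6.48 ± 1.06 RPKM, Sfrp1 (chr8:23901263-23939648) at 6.13 ± 2.37 and Dkk2 (chr3:131790336-131886065) at 5.97 ± 2.12. Neighbours in this group were not separated either, with Wnt5a above Sfrp1 in 9 of 15 libraries and Sfrp1 above Dkk2 in 7. Axin2 (chr11:108811169-108841609) was at 1.00 ± 0.167 RPKM, below Dkk2 and above Rspo1 in 15 of 15. Rspo1 (chr4:124879876-124902892) at 0.373 ± 0.124 RPKM and Wnt5b (chr6:119409323-119521897) at 0.341 ± 0.0707 RPKM could not be ordered, Rspo1 being higher in 7 of 15. Rspo1 rested on 4 to 22 counts per library and Wnt5b on 8 to 54, which limits what can be seen for them. Antisense transcripts overlap Rspo1, Rspo3, Wnt5a, Wnt5b, Dkk2, Sfrp2 and Axin2 in the annotation, Rspo3 and Wnt5b also overlap a transcript on their own strand, and the strand setting of the counting is not given in the sources used here, so these levels may include reads of the overlapping transcripts.

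No transcript of the set passed the test for a difference between uracil doses. At 30 µM uracil all 10 log2 fold changes against control lay above 0, but they were small, from 0.012 to 0.27 with a median of 0.053 against 0.012 over all genes. In edgeR's quasi-likelihood test with Benjamini-Hochberg adjustment over 13865 genes, their adjusted p-values ran from 0.943 to 1.00. At 10 µM the fold changes ran from −0.22 to 0.16, 6 above 0 and 4 below, with a median of 0.089 against 0.0059 over all genes and adjusted p of 1.00 throughout. The background was the same, as edgeR called 0 genes (0%) at 10 µM, 0 (0%) at 30 µM, 0 (0%) between the 2 uracil doses and 0 (0%) among the 3 doses. The same tests held 96, 595, 323 and 212 genes at an unadjusted p under 0.05, no member among them, and DESeq2 called 0 in each as well. Both uracil doses were compared with the same control libraries, so the 2 sets of values are not independent. The model has dose alone, so the spread of a gene among the replicate numbers counts as error in every interval below. With the number added to the model, the standard errors at 30 µM were smaller for genes that differ among numbers. They were 0.057 for Rspo2, 0.071 for Dkk2 and 0.070 for Dkk3, against 0.37, 0.33 and 0.44 with dose alone.

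With numbers 2 to 5 alone, the median fold change of the set was 0.021 at 30 µM, with 7 genes above 0 and 3 below, and 0.0032 at 10 µM, with 6 above and 4 below. Without only the 3 libraries, where the doses hold different numbers, the medians were 0.19 and 0.21. The adjusted p-values of the members were 1.00 in the 12 libraries, and again 0 genes (0%) were called in each comparison of doses there, with 148, 256 and 224 at an unadjusted p under 0.05.

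**Figure D2:**
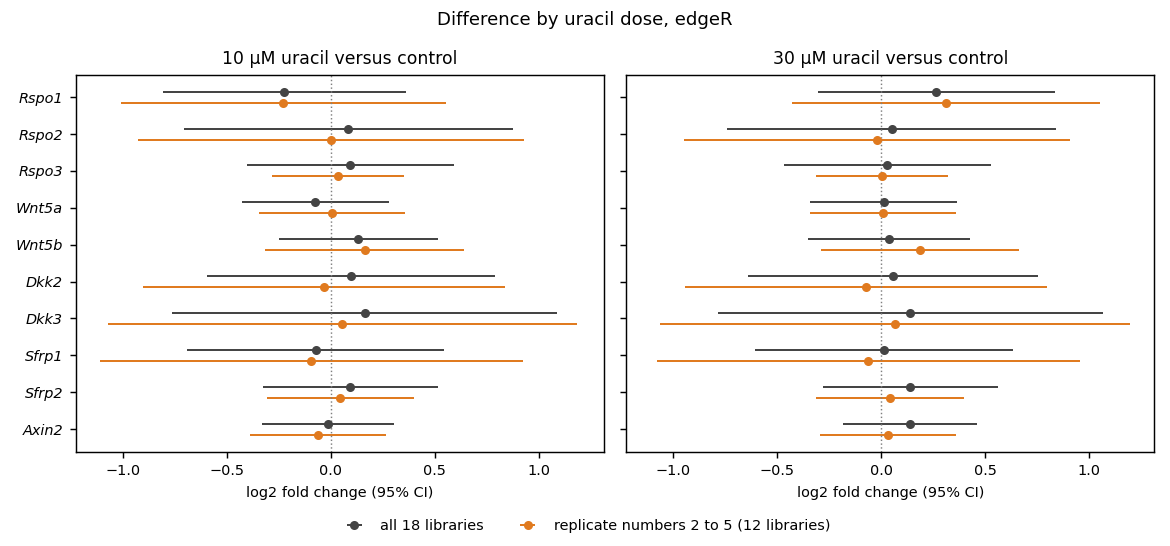
Log2 fold change of each gene against control at 10 µM (left) and 30 µM uracil (right), in all 18 libraries and in the 12 libraries numbered 2 to 5. The 95% confidence intervals are from the edgeR model of dose alone, in which the spread among the replicate numbers counts as error. Every interval of this model spans 0, and those of Dkk3 reach beyond 1 on the log2 scale while those of Axin2 stay within 0.5.

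Among the R-spondins, Rspo2 ranged from 67.6 to 229 CPM in the control libraries (median 147), from 68.5 to 234 at 10 µM (median 145) and from 66.2 to 211 at 30 µM (median 156). The 3 ranges of Rspo2 coincided almost end to end. Against control, the log2 fold change of Rspo2 came to 0.085 ± 0.37 (SE) at 10 µM and to 0.051 ± 0.37 at 30 µM. The 95% intervals were −0.71 to 0.88 and −0.74 to 0.84. With the replicate number in the model they were −0.060 to 0.18 and −0.093 to 0.15. Rspo3 ranged from 33.7 to 65.8 CPM in control (median 54.6), from 32.5 to 78.5 at 10 µM (median 54.6) and from 25.1 to 74.8 at 30 µM (median 56.3), again with overlapping groups. Its fold change at 30 µM was 0.030 ± 0.24, and in numbers 2 to 5 the interval narrowed to −0.31 to 0.32.

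Rspo1 had the widest difference by dose, with medians of 0.921 CPM in control, 0.791 at 10 µM and 0.998 at 30 µM, and groups that overlapped. Between the 2 uracil doses, Rspo1 was higher at 30 µM in 6 of 6 numbers, by 0.49 ± 0.27 on the log2 scale (unadjusted p = 0.085, edgeR adjusted p = 1.00). At 4 to 22 counts per library this difference was not resolved from the spread.

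The ligand Wnt5a, which guides cell polarity and migration, ranged from 41.2 to 88.3 CPM in control (median 50.2), from 42.5 to 60.8 at 10 µM (median 51.4) and from 44.3 to 65.9 at 30 µM (median 58.1). The highest value was that of control n1 and the next that of 30 µM n6, both rich in unaligned pairs; what part this had in the values was not tested. Against control Wnt5a differed by −0.074 ± 0.17 on the log2 scale at 10 µM and by 0.012 ± 0.17 at 30 µM, and in numbers 2 to 5 it was 0.0049 ± 0.16 and 0.0072 ± 0.16. Wnt5b stayed between 1.31 and 2.69 CPM in all 18 libraries, with a fold change of 0.13 ± 0.18 at 10 µM and 0.039 ± 0.19 at 30 µM.

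Of the secreted inhibitors, Dkk3 spanned 35.0 to 119 CPM in control (median 78.9), 32.1 to 130 at 10 µM (median 93.5) and 31.4 to 123 at 30 µM (median 93.6). Its fold change of 0.14 ± 0.44 at 30 µM had an interval of −0.79 to 1.07. The model of these intervals has dose alone, so the spread of Dkk3 among the replicate numbers counts as error in it, and within a number the doses lay closer together than the interval is wide. With the number in the model the Dkk3 interval was −0.065 to 0.23. Dkk2 spanned 12.6 to 36.1 CPM in control (median 23.3), 13.3 to 35.4 at 10 µM (median 26.7) and 13.1 to 33.8 at 30 µM (median 25.3). The groups of both Dkk genes overlapped over nearly their whole range. Dkk2 at 30 µM was 0.056 ± 0.33 against control with all libraries and −0.072 ± 0.39 in numbers 2 to 5. With all libraries and the number in the model its interval was −0.13 to 0.18.

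Sfrp1 and Sfrp2, which sequester Wnt, showed no called change either. Sfrp1 spanned 19.6 to 49.9 CPM in control (median 28.7), 16.8 to 47.9 at 10 µM (median 27.4) and 16.7 to 45.6 at 30 µM (median 31.3). At 10 µM Sfrp1 was −0.072 ± 0.29 against control on the log2 scale, and at 30 µM 0.013 ± 0.29. Sfrp2 spanned 80.1 to 158 CPM in control (median 129), 84.5 to 183 at 10 µM (median 136) and 101 to 191 at 30 µM (median 138). Sfrp2 was higher than control in 5 of 6 numbers at 10 µM and in 5 of 6 at 30 µM, by 0.094 ± 0.20 and 0.14 ± 0.20. In numbers 2 to 5 these differences were 0.046 ± 0.16 and 0.044 ± 0.16. With the replicate number added to the model, the interval of Sfrp2 at 30 µM lay above 0 (0.018 to 0.26). The gene was not called there either (edgeR adjusted p = 0.656).

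Axin2, a readout of β-catenin signalling, spanned 4.54 to 8.35 CPM in control (median 7.19), 5.66 to 8.51 at 10 µM (median 6.64) and 6.25 to 9.90 at 30 µM (median 7.19). The highest value came from 30 µM n6 and the lowest from control n6. Axin2 differed from control by −0.014 ± 0.15 on the log2 scale at 10 µM and by 0.14 ± 0.15 at 30 µM (interval −0.18 to 0.46). In numbers 2 to 5 it was 0.035 ± 0.15 at 30 µM.

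With all 18 libraries, Rspo2, Rspo3, Wnt5a, Dkk2, Dkk3, Sfrp1 and Sfrp2 spread more among the replicate numbers than within them. Wnt5a was the closest of these, with SDs of log2 CPM of 0.26 between the means of the numbers and 0.20 within a number. For Rspo1 and Axin2 the SD between numbers was the smaller, 0.34 and 0.17 against 0.49 and 0.26. For Wnt5b the 2 were nearly equal. Over all genes, 12.6% of 13865 were called by replicate number in an edgeR model of dose and number, and 20.8% of 13888 without the 3 libraries. The members were chosen on these values, so calls of this model are not given for them.

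Dkk3 had the widest range, with a mean of 120 ± 1.99 CPM (SD, n = 3) in number 2 and 32.8 ± 1.90 in number 6, a ratio of 3.66. Its values in control, 10 µM and 30 µM were 89.4, 130 and 118 CPM in number 1, 119, 119 and 123 in number 2, and 104, 115 and 118 in number 3. They were 68.5, 72.2 and 69.5 CPM in number 4, 35.8, 37.2 and 37.0 in number 5, and 35.0, 32.1 and 31.4 in number 6. The libraries numbered 1 to 3 were thus all above those numbered 4 to 6, a split seen in the data and carried by no label, and number 4 lay between the rest. The share of all genes with this split was not counted, so for no gene named here or below is it read as particular.

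Rspo2 followed the same order of numbers. It was at 176, 223 and 210 CPM in number 1, at 229, 234 and 211 in number 2, and at 177, 173 and 190 in number 3. In number 4 it was at 117, 117 and 121 CPM, in number 5 at 87.7, 88.8 and 83.3, and in number 6 at 67.6, 68.5 and 66.2. The lowest value in numbers 1 to 3, 173 CPM, was above the highest in numbers 4 to 6, 121 CPM, and within each of numbers 4 to 6 the 3 doses lay close together.

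Dkk2 was the third gene with this order, at 25.6 to 36.1 CPM in the 9 libraries numbered 1 to 3 and at 12.6 to 22.4 in the 9 numbered 4 to 6. Rspo3 was likewise at 58.1 to 78.5 CPM against 25.1 to 51.1, with no overlap. Wnt5a was at 55.5 to 62.7 against 41.2 to 47.2 CPM in the 15 libraries with few unaligned pairs, but with all 18 the ranges met, since 30 µM n6 was at 65.9. Across those 15 libraries, log2 CPM of Dkk2 and Dkk3 had a Pearson r of 0.99, Rspo2 and Dkk2 of 0.98, and Rspo2 and Wnt5a of 0.93. With all 18 libraries the values of r were 0.99, 0.98 and 0.59. Libraries of a number share that number, so these are no more than 6 separate points and the correlations are descriptions.

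**Figure D3:**
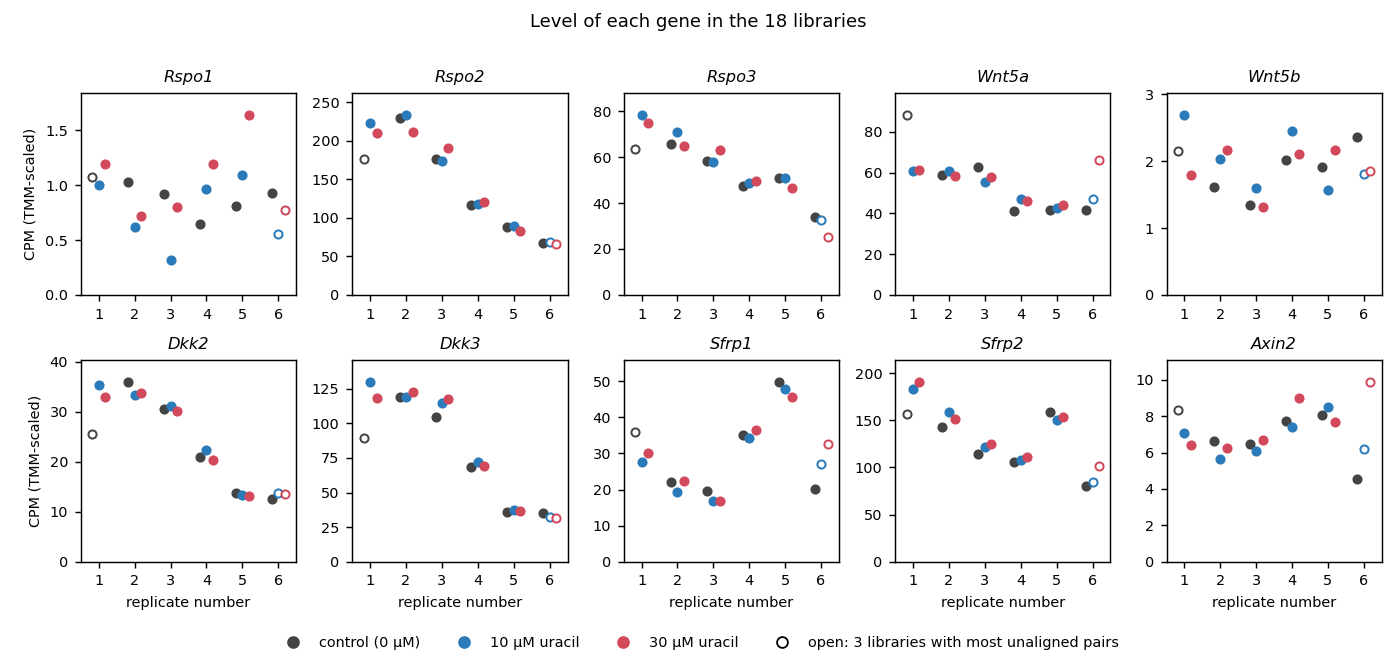
CPM of the 10 genes by replicate number, with 1 point per library, coloured by dose and open for the 3 libraries with the most unaligned pairs. Rspo2, Rspo3, Dkk2 and Dkk3 are higher in every library numbered 1 to 3 than in any numbered 4 to 6, while Sfrp1 is highest in number 5. The share of all genes that separate in this way was not counted.

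Sfrp1 had another pattern, with its highest mean in number 5, 47.8 ± 2.18 CPM, and its lowest in number 3, 17.7 ± 1.62 CPM, a ratio of 2.70. It was at 49.9, 47.9 and 45.6 CPM in number 5, at 35.2, 34.2 and 36.4 in number 4, at 22.2, 19.3 and 22.4 in number 2, and at 19.6, 16.8 and 16.7 in number 3. In number 1 it was at 35.8, 27.7 and 30.0 CPM, and in number 6 at 20.3, 27.0 and 32.5, so the 3 libraries with the most unaligned pairs lay above the other libraries of their number. Against Dkk3 its r over the 15 libraries was −0.68, against Axin2 0.76.

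Sfrp2 was at 156 to 191 CPM in number 1, at 143 to 159 in number 2 and at 151 to 158 in number 5. It was at 114 to 124 CPM in number 3, at 106 to 111 in number 4 and at 80.1 to 101 in number 6. The ratio of its highest to its lowest mean was 2.00. With all 18 libraries Axin2 differed least, with a ratio of 1.31. Without the 3 libraries that ratio was 1.78, because number 6 was then left with its control alone, at 4.54 CPM. Axin2 was then no longer the lowest, as Wnt5a was at 1.46, Wnt5b at 1.66 and Rspo1 at 1.74. The Axin2 values within number 6, 4.54, 6.19 and 9.90 CPM, spread more than the means of the 6 numbers did.

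Rspo1 and Wnt5b could not be ordered by number. The SD of log2 CPM within a number was 0.49 for Rspo1, above the 0.34 between the means of the numbers, and for Wnt5b the 2 were 0.22 and 0.23. For Dkk3 they were 0.13 and 0.85, and for Rspo2 0.087 and 0.71.

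Among 10617 named genes with a mean of at least 5 CPM, the most alike in pattern to Dkk3 over the 15 libraries were Coch (r = 0.99) and Ctsk (r = 0.99), which encodes the collagen-degrading protease cathepsin K. Coch (r = 0.99) and Mfap5 (r = 0.99), a microfibril protein gene, were nearest to Dkk2. Nearest to Rspo2 were Ccdc80 (r = 0.99) and Mfap5 (r = 0.98), and to Rspo3 Cxcl15 (r = 0.98) and Sned1 (r = 0.97). Sfrp1 was most like the proteoglycan gene Dcn (r = 0.97) and the complement protease gene C1s1 (r = 0.97), and Sfrp2 most like Arhgap20 (r = 0.97) and the Wnt receptor gene Fzd1 (r = 0.90). Wnt5a was nearest to Fndc1 (r = 0.97) and Crip2 (r = 0.96), and for Crip2 r was 0.25 with all 18 libraries. For Axin2 the nearest were Wdcp (r = 0.90) and Dlk1 (r = 0.88), of which Wdcp had r = 0.14 with all 18. Rspo1 with Wee1 (r = 0.88) and Ppp2r3d (r = 0.81), and Wnt5b with Zfp672 (r = 0.81) and Ankmy2 (r = 0.76), had the loosest neighbours. With all 18 libraries r was 0.34 for Wee1, 0.42 for Ppp2r3d, 0.33 for Zfp672 and 0.59 for Ankmy2. For Sfrp1 it was then 0.75 with Dcn and 0.78 with C1s1, and for the remaining pairs 0.85 to 0.99.

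Other Wnt pathway genes were taken from 9 lists of 82 genes in all, without the members. Of these, 53 were tested, 5 had no count in any library, and 10 of the 53 (18.9%) were called by replicate number, beside 12.6% of all genes. Without the 3 libraries 20 of 53 (37.7%) were called, beside 20.8%, and in numbers 2 to 5 alone it was 18. Single libraries bore on these counts, which were 28 of the 53 and 3498 of all genes without control n1, and 21 and 3271 without control n6. In the comparisons of dose, 0 of the 53 passed at an adjusted p of 0.05 and 0 at an unadjusted p under 0.05.

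On the R-spondin side, 3 of 4 tested genes were called, namely the receptors Lgr4 and Lgr5 and the ubiquitin ligase gene Rnf43, while Znrf3 was not (adjusted p = 0.129). Lgr4 was at 60.9, 49.2 and 48.5 CPM in control, 10 µM and 30 µM of number 1, at 45.1, 43.9 and 44.2 in number 2, and at 44.8, 39.3 and 42.5 in number 3. In number 4 it was at 26.1, 27.1 and 27.5, in number 5 at 26.3, 24.4 and 23.2, and in number 6 at 28.1, 28.5 and 22.3 CPM (edgeR adjusted p = 1.87e-06). Every library numbered 1 to 3 was above every one numbered 4 to 6 for Lgr4, as for Rspo2. Lgr5 had means of 1.11 to 1.30 CPM in numbers 1 to 3 and of 0.262 to 0.628 in numbers 4 to 6 (adjusted p = 0.00965) but rested on 1 to 26 counts. Rnf43, with means of 7.66 to 8.94 CPM in numbers 1 to 3 and 4.93 to 6.09 in numbers 4 to 6, was at the threshold itself (adjusted p = 0.04998). Rspo4 and Lgr6 had too few counts to be tested.

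Of the other Wnt ligands, 3 of 7 tested were called. Wnt2b had means of 3.56 to 3.96 CPM in numbers 1 to 3 and 6.86 to 7.35 in numbers 4 to 6 (edgeR adjusted p = 0.000286). Wnt2 was highest in number 4, at 10.7 ± 1.48 CPM (n = 3), against 5.94 to 7.78 in the other numbers (adjusted p = 0.00807). Wnt4 was highest in number 1 at 4.13 CPM and lowest in number 6 at 1.32 CPM (adjusted p = 0.0019). Wnt9a, Wnt10a, Wnt10b and Wnt11 were tested and not called, and Wnt1, Wnt3, Wnt3a, Wnt6, Wnt7a, Wnt7b, Wnt8a, Wnt8b, Wnt9b and Wnt16 were too low to be tested.

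**Figure D4:**
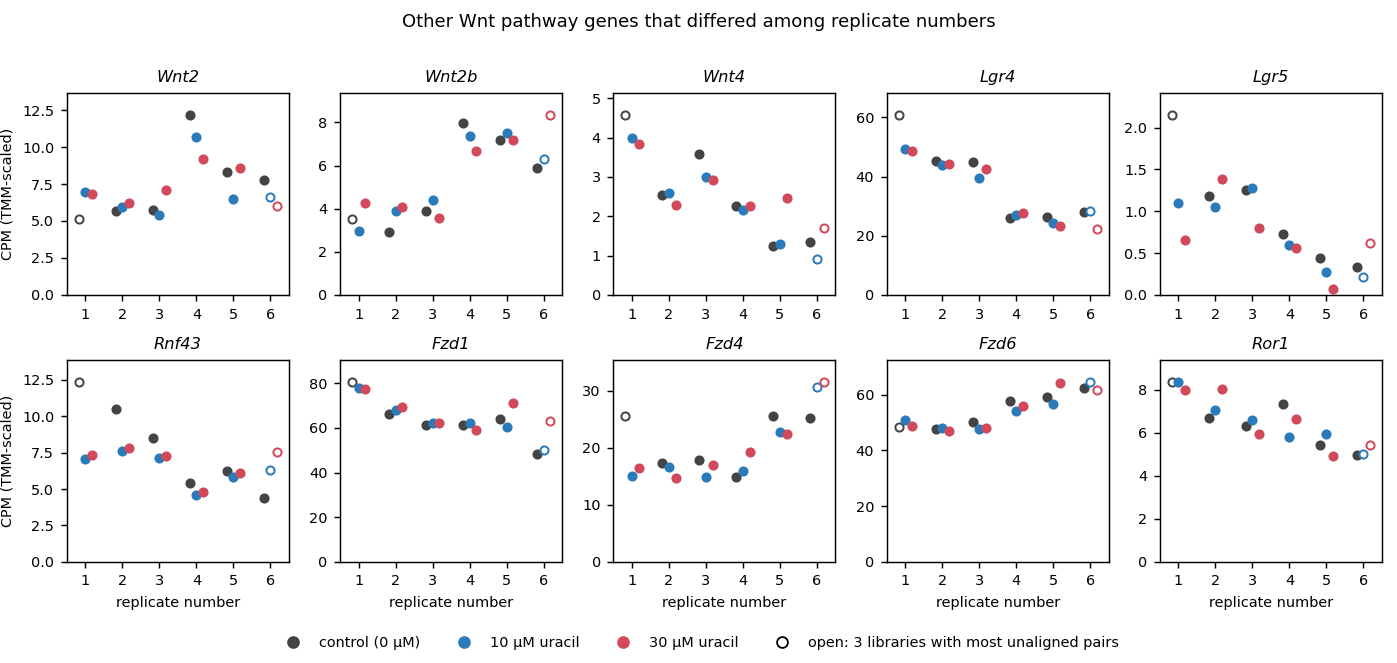
CPM of the 10 other Wnt pathway genes called by replicate number, with 1 point per library, coloured by dose and open for the 3 libraries with the most unaligned pairs. Lgr4 and Wnt2b separate numbers 1 to 3 from numbers 4 to 6 in opposite directions.

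Of the Frizzled receptors, 3 of 9 tested were called. Fzd6 had means of 47.5 to 49.3 CPM in numbers 1 to 3 and 55.9 to 62.9 in numbers 4 to 6 (edgeR adjusted p = 0.00167). Fzd4 was highest in numbers 5 and 6, at 23.5 and 29.2 CPM (adjusted p = 0.00498), and Fzd1 highest in number 1, at 78.7 CPM (adjusted p = 0.00686). Of 6 co-receptors and other Wnt receptors, Ror1 was called (8.25 CPM in number 1 and 5.13 in number 6, adjusted p = 0.0119) and Lrp5, Lrp6, Ror2, Ryk and Ptk7 were not. Without the 3 libraries 6 of 9 Frizzled genes were called, with Fzd3, Fzd5 and Fzd7 added. Fzd10 was not tested.

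Of the intracellular genes, 0 of 11 of the destruction complex and Dishevelled, 0 of 8 of β-catenin and its partners and 0 of 3 further targets were called by number with all libraries, and so were 0 of 3 further inhibitors and 0 of 2 genes of Wnt secretion. Without the 3 libraries, 1 of 11, 0 of 8, 2 of 3, 3 of 3 and 1 of 2 were called. The 3 inhibitors were Sfrp4, Kremen1 and Apcdd1, the 2 targets Ccnd1 and Myc, and the others Dvl2 and the Wnt carrier Wls. Ccnd1, which drives entry into the cell cycle, had means of 797 to 814 CPM in numbers 1 to 3 and 657 to 703 in numbers 4 to 6 (adjusted p = 0.0585, and 7.83e-05 without the 3). Lef1, Nkd1, Sp5, Cdx1, Dkk1, Dkk4, Dkkl1, Sfrp5, Frzb, Wif1, Sost, Sostdc1, Notum, Cer1, Draxin and Kremen2 were too low to be tested.

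Markers of cell types were read beside these patterns. The cells expressed fibroblast markers, with Col1a1, Col1a2, Col3a1 and Vim at 2698 CPM or more in every library, and Pdgfra, Pdgfrb, Dcn, Lum and Col3a1, 5 of 9, were called by number. They did not move together. Pdgfrb had means of 220 to 238 CPM in numbers 1 to 3 and 142 to 174 in numbers 4 to 6, Pdgfra of 37.5 to 48.0 and 28.0 to 31.2, and Lum of 3.82 to 10.7 and 0.494 to 2.50. Dcn was highest in numbers 4 and 5, with means of 174 and 209 CPM, and had means of 109, 89.9, 65.4 and 66.6 CPM in numbers 1, 2, 3 and 6. Col3a1 was lowest in number 6, with a mean of 3134 CPM against 3987 to 4516 in the others. Of mesothelial or epithelial markers, 5 of 7 tested were called, and the summed level of that list was 116 to 175 CPM in number 1, 141 to 152 in number 2 and 153 to 160 in number 3 against 301 to 309 in number 4, 361 to 400 in number 5 and 273 to 303 in number 6. Msln, a mesothelial surface protein gene, had means of 26.4 to 34.8 CPM in numbers 1 to 3 and 73.9 to 105 in numbers 4 to 6, while Krt18 and Epcam were not tested for low counts. Of 3 cartilage markers tested, Col2a1 and Acan were called and moved the other way. Col2a1 had means of 17.9 to 28.4 CPM in numbers 1 to 3 and 4.65 to 9.77 in numbers 4 to 6, and Acan 3.22 to 3.36 and 1.52 to 1.99. With all 18 libraries Sox9 was not called (edgeR adjusted p = 0.356) and did not split so. Its means were 11.7, 6.46, 7.77, 5.10, 4.89 and 9.19 CPM in numbers 1 to 6, with SDs of 8.11 in number 1 and 5.03 in number 6. Without the 3 libraries Sox9 was called (edgeR adjusted p = 0.000811), so that 3 of 3 cartilage markers were. The highest Sox9 value was then 9.55 CPM, against 21.0 with all 18.

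Of endothelial, blood and macrophage, skeletal muscle, and neural and Schwann markers, 0 of 2, 0 of 2, 0 of 1 and 0 of 2 tested were called with all libraries. Without the 3 libraries these counts were 0 of 2, 0 of 2, 0 of 1 and 2 of 2. The neural markers called were Tubb3 and Map2 (edgeR adjusted p = 0.000211 and 0.0121), at 17.8 to 45.6 and 199 to 299 CPM in the 18 libraries. Of the fibroblast markers, 7 of 9 were then called, with Thy1 and Vim added, and of the mesothelial or epithelial ones 5 of 8. Pecam1, Cdh5, Ptprc, Adgre1, Myod1, Myog and Sox10 were too low to be tested. In bulk RNA, fewer cells of a type and less RNA per cell cannot be told apart, and the part of the mesothelial and cartilage markers in the levels of Rspo2, Rspo3, Dkk2, Dkk3, Wnt5a and Sfrp1 was not tested.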

How the data were processed

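Per the labels, MEFs were grown for 24 h with 0, 10 or 30 µM uracil, and stranded, ribosome-depleted total RNA libraries were read as paired ends of 75 bases. The deposited values are raw counts as the authors made them, with 1 row for each Ensembl gene and no normalisation. The submitters' processing notes name FastQC, HISAT2, SAMtools 1.2 and HTSeq, and list a human build although the identifiers are mouse ones; the annotation release and strand setting are not given in the sources used here. Human RNA led the study to leave out a vehicle and a 30 µM sample, which the labels do not identify, so all 18 libraries were kept and results given beside them with the libraries richest in unaligned pairs left out. Of the vehicle and 30 µM libraries, control n1 (54.2%) and 30 µM n6 (37.9%) had the most unaligned pairs. Whether they are the samples left out is not stated, and the origin of their unaligned pairs was not tested.

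Counts were normalised by TMM and tested with edgeR 4.0.16 (R 4.3.3) on genes passing filterByExpr, with dose alone in the model and, for replicate number, dose and number. Thresholds were an adjusted p of 0.05 over all genes tested. DESeq2 1.42.0 was an alternative. Standard errors are the log2 fold change over the square root of F, and intervals use the test's degrees of freedom. CPM are scaled by TMM to the genes tested. Exon lengths and positions came from GENCODE M39 (GRCm39), which named 51731 of 55487 identifiers, and promoter windows from RefSeq (GRCm38.p6) through their letters. The entries for uncounted pairs (no gene 6.85% to 15.5%, ambiguous 0.503% to 1.64%, low quality 4.79% to 13.1%, unaligned 1.72% to 54.2%, several places 5.59% to 20.2%) stayed out of library sizes. Scripts were tested on simulated data.

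The members and the gene lists were chosen with earlier results of these data known. All members are named; of the other pathway genes, up to 4 called genes per list with the smallest p, the genes not tested, and for each member the 2 genes with the highest correlation of log2 CPM (prior count 2) over the 15 libraries. Genes called only without the 3 libraries and the markers with values were named after their values were seen. The fit of numbers 2 to 5 alone was added after seeing the data. Nothing in the labels says which cultures the numbers mark, so p-values measure the spread between these samples.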

Additional observations from a re-analysis of the deposited data

Results flagged for a closer look

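The share of unaligned pairs stood apart from the other 5 libraries of its dose in control replicate 1 (54.2%, others 1.96% to 3.09%), 10 µM replicate 6 (5.24%, others 1.72% to 2.46%) and 30 µM replicate 6 (37.9%, others 2.13% to 3.59%), each farther from its neighbours than Dixon's 95% limit for 6 samples. The read pairs assigned to genes in 30 µM replicate 6, 7.39 M, did so as well (others 13.3 to 16.6 M). Over the 36 groups tested chance gives about 1.8 such cases and 4 were found. None of the 10 genes was among them in any dose.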

How the results depend on the processing

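In the 28 alternatives run, no dose comparison called any gene. The lowest adjusted p of a member was 0.656, for Sfrp2 at 30 µM with the replicate number as a block. The direction of the small dose differences was not stable. With library totals alone, Wnt5a and Sfrp1 at 30 µM were −0.0071 and −0.012. Without the 3 libraries, Wnt5a and Axin2 at 10 µM were 0.11 and 0.049, and without the control and 30 µM ones 0.088 and 0.028. In numbers 2 to 5, Wnt5a and Dkk2 at 10 µM were 0.0049 and −0.033, and Rspo2, Dkk2 and Sfrp1 at 30 µM −0.019, −0.072 and −0.061. The cause was not tested.

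Leaving out each library in turn gave at 10 µM −0.083 to 0.28 for Rspo2, −0.024 to 0.22 for Rspo3, −0.14 to 0.084 for Wnt5a, −0.033 to 0.28 for Dkk2, −0.0056 to 0.35 for Dkk3, −0.27 to 0.14 for Sfrp1, −0.015 to 0.20 for Sfrp2 and −0.11 to 0.047 for Axin2. At 30 µM it gave −0.094 to 0.24 for Rspo2, −0.085 to 0.17 for Rspo3, −0.059 to 0.17 for Wnt5a, −0.059 to 0.13 for Wnt5b, −0.073 to 0.23 for Dkk2, −0.0086 to 0.32 for Dkk3 and −0.14 to 0.23 for Sfrp1.

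The 1745 genes called by replicate number became 2989 with DESeq2, 2890 without the 3 libraries, 3287 without 2 of them, 2755 in numbers 2 to 5, 3498 without control replicate 1 and 3271 without control replicate 6, with 1272 as the lowest when 1 library was left out. The 10 other Wnt pathway genes became 24, 20, 23, 18, 28 and 21, with 8 as the lowest when 1 library was left out.

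With the replicate number as a block, 0 genes were called in the 4 dose tests (161, 937, 588 and 386 at an unadjusted p under 0.05); Rspo3 at 30 µM was −0.020. The block narrowed the intervals: Dkk3 at 30 µM was 0.085 (95% interval −0.065 to 0.23, edgeR adjusted p = 0.721). Sfrp2 at 30 µM was 0.14, with an interval above 0 (0.018 to 0.26). It was thus among the 937 genes (edgeR unadjusted p = 0.027, adjusted p = 0.656). With the block and without the 3 libraries, Wnt5a and Dkk2 at 10 µM were 0.015 and −0.011. Rspo2, Rspo3, Dkk2, Sfrp1 and Axin2 at 30 µM were then −0.020, −0.00067, −0.071, −0.070 and −0.0041. Sfrp1 at 10 µM was −0.13 in that fit, with an interval below 0 (−0.26 to −0.0059). The pairing was checked by the deviations from the dose means: 16 of 18 pairs of libraries with the same number had a correlation over 0.1 (−0.10 to 0.71), and 8 of 18 correlated best with their own number. Both pairs under 0.1 hold control replicate 1. Since not every pair passed, and no label says what a number marks, the fit without the block was kept. Its intervals are the wider ones for genes that differ among the numbers.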
